A study of Mus musculus with 9 samples.

Results

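Foxo1-deficient germinal center B cells, sorted without regard to zone, were compared with wild-type germinal center B cells of the dark zone, to ask which dark zone functions change when Foxo1 is removed and which are kept. The comparison rests on 6 of the 9 RNA libraries of the study, 3 per group, chosen by their titles, and the 3 wild-type light zone libraries are given only beside it. Both donor B cell populations carried B1-8hi(KI/+), an antigen receptor that binds the hapten NP, and ERT2cre(KI/+), a Cre recombinase that tamoxifen switches on. Wild-type donors were Foxo1(+/+) CD45.1/1 and the others Foxo1(f/f) CD45.1/2, and both were transferred together, 1:1, into C57BL/6 recipients. The recipients were immunized with NP-CGG in alum on day 0 and received tamoxifen by mouth on days 7 to 9, so the wild-type cells met the active recombinase as well. On day 12 about 10000 spleen cells per library were sorted as B220+ NP+ GL7+ CD38- cells. Dark zone cells were further gated as CD86lo CXCR4hi, whereas no CD86 or CXCR4 gate was set for the Foxo1(f/f) cells.

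Several features limit these groups as a model. Genotype and gate change together between the groups and cannot be told apart in this comparison. By the labels the Foxo1(f/f) cells were CD45.1/2, yet their sort is described as CD45.2-negative, a mismatch that was not settled here. The sources used here do not say which exons of Foxo1 the recombinase removes. Nothing states that the 3 libraries of a group came from separate mice, so each p-value reflects the spread of these libraries only, and that spread may be technical.

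Foxo1 is a forkhead transcription factor that Akt, downstream of PI3 kinase, phosphorylates and removes from the nucleus. The dark zone is where germinal center cells proliferate and hypermutate their receptors, and the light zone is where antigen and helper T cells select among them. Foxo1 protein is known to be abundant in dark zone cells, where the chemokine receptor CXCR4 holds cells near CXCL12-producing stroma. Germinal centers without Foxo1 are known to lose the dark zone as a compartment.

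In the Foxo1-deficient cells some genes listed as dark zone regulators or markers were lower, and few genes of division and mutation were called. Gcet2, Bach2, Foxp1 and Rgs13 fell beside Foxo1 and Cxcr4, by 0.82 to 3.01 on the log2 scale. Tifa was lower too, but it was high enough to be tested only through the dark zone libraries, so its direction was fixed. Of 30 hypermutation genes 19 differed by less than 2-fold with their whole 95% interval, as did 64 of 85 mitosis genes and 46 of 61 DNA replication genes. The share over all tested genes was 48.5%, and 71.7% of those with a mean of at least 10 FPKM. By this share these lists lie near the background of equally expressed genes. Called were 3 lower mitosis genes, 2 lower DNA replication genes and 1 higher hypermutation gene, against 0.85% lower and 2.35% higher of all genes. Some surface receptor and antigen presentation genes were higher, among them Cr2, Cd22, Cd40 and Ifi30, in libraries whose myeloid markers were higher too. Several light zone genes, such as Cd83, stayed within 2-fold of the dark zone level.

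Values are in FPKM, the fragments of a transcript relative to its length and to the size of the library, as the authors deposited them. Differences are Foxo1-deficient minus dark zone on the log2(FPKM + 1) scale. Changes of low genes are understated there, and a 2-fold difference of an abundant gene is close to 1. Tests are limma with Benjamini-Hochberg adjustment over 9533 genes, those that reached an FPKM of 1 in 3 or more of the 6 compared libraries, at a threshold of 0.05. A gene that did not pass but whose 95% interval lay within -1 to 1 is called bounded within 2-fold. Of the 9533 genes, 305 were called (3.2%), 224 of them higher (2.35%) and 81 lower (0.85%), and 4623 were bounded (48.5%). At an unadjusted p below 0.05 there were 1593 (16.7%). Leaving out any single dark zone or Foxo1-deficient library left 121 to 154 called genes, with 74 to 121 higher and 26 to 80 lower. The 3 libraries of each group did not overlap in 2236 genes (23.5%). Over all tested genes the median difference was 0.12, and the split between higher and lower depended on the scaling. Centring each library on its median gave 187 higher and 234 lower genes (1.96% and 2.45%), with a median of -0.05. Quantile normalization gave 233 higher and 149 lower genes (2.44% and 1.56%).

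Each library listed between 11229 and 12495 of 23700 entries above 0, and relative depth estimated from the Cufflinks confidence limits ran from 0.826 to 1.107. Among 8632 clearly expressed genes, Foxo1-deficient library 3, the shallowest, listed 243 at exactly 0, against 10 to 74 in the other 8 libraries. A 0 can therefore be a failed estimate, and genes with such values are given by library. Pearson's r between replicates across the tested genes was 0.939 to 0.945 in the dark zone and 0.866 to 0.919 in the Foxo1-deficient group. Markers of myeloid and erythroid cells were higher in all 3 Foxo1-deficient libraries, and their values are given beside the gains they accompany.

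Foxo1 itself, at chr3:52072259-52154031 on mm9, stood at 24.5, 19.5 and 19.1 FPKM in dark zone libraries 1 to 3 and at 3.01, 1.79 and 0.808 FPKM in Foxo1-deficient libraries 1 to 3. All 3 Foxo1-deficient libraries lay far below the dark zone range, and the light zone libraries, at 14.8, 18.7 and 22.1 FPKM, lay near it. The difference was -3.01 with a standard error of 0.3 (limma, adjusted p = 0.000457). Reads from exons outside the deleted part and reads from cells that kept the gene cannot be told apart in these values.

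Cxcr4 and Cd86 were used to gate the dark zone cells, so their values describe the sort and support nothing further. Cxcr4 (chr1:130484776-130488876) read 78.5, 79.5 and 59.6 FPKM in the dark zone and 24.7, 17.6 and 24.6 FPKM in the Foxo1-deficient libraries. Cd86 (chr16:36603955-36666163), a costimulator for T cells, read 16.9, 18.2 and 12.5 FPKM against 58.8, 55.0 and 55.7 FPKM. Neither gene overlapped between the groups. Light zone cells, which passed the opposite gate, had 33.3 ± 4.48 FPKM of Cxcr4 and 51.7 ± 7.01 FPKM of Cd86 (SD, n = 3). In the ungated Foxo1-deficient cells neither gene differed from the light zone past the threshold (limma, adjusted p = 0.214 and 0.797).

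Cd38, which the sort excluded as a surface protein in both groups, differed by 0.05 with a 95% interval of -0.75 to 0.85. Ptprc, the gene of CD45 whose long isoform is B220, read 120.4, 111.7 and 103.0 FPKM in the dark zone and 215.9, 202.1 and 219.9 FPKM in the Foxo1-deficient libraries. The groups did not overlap, and Ptprc rose by 0.92 (limma, adjusted p = 0.00259). The gene is expressed by all nucleated blood cells, including the myeloid cells whose markers were higher, and their part in this result was not tested.

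The list of dark zone regulators and marker genes held 15 genes, all tested. Of these, 7 were lower, 1 was higher, 6 were bounded within 2-fold and 1 was neither, with a median of -0.51 against 0.12 over all tested genes. Over all genes 0.85% were lower, 2.35% higher and 48.5% bounded. The unadjusted p in limma was below 0.05 for 8 lower and 3 higher members, against 16.7% of all genes. Without the deleted gene and the gated Cxcr4, 5 of 13 were lower and 1 was higher, with a median of -0.3. Tifa, among the lower ones, passed the filter only through the dark zone libraries, so its direction was fixed. The list itself was only partly higher in the wild-type dark zone. In dark zone minus light zone 4 of the 15 were higher (all genes 0.587%), namely Cxcr4, Polh, Gcet2 and Tifa. Lmo2 was the 1 lower member (all genes 1.4%), and Foxo1, Bach2, Foxp1 and Rgs13 were not called there. In bulk RNA, fewer cells that express a gene and less RNA per cell cannot be told apart. The plot of identity genes by library shows the order from the deepest fall to the steepest rise.

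**Figure D1:**
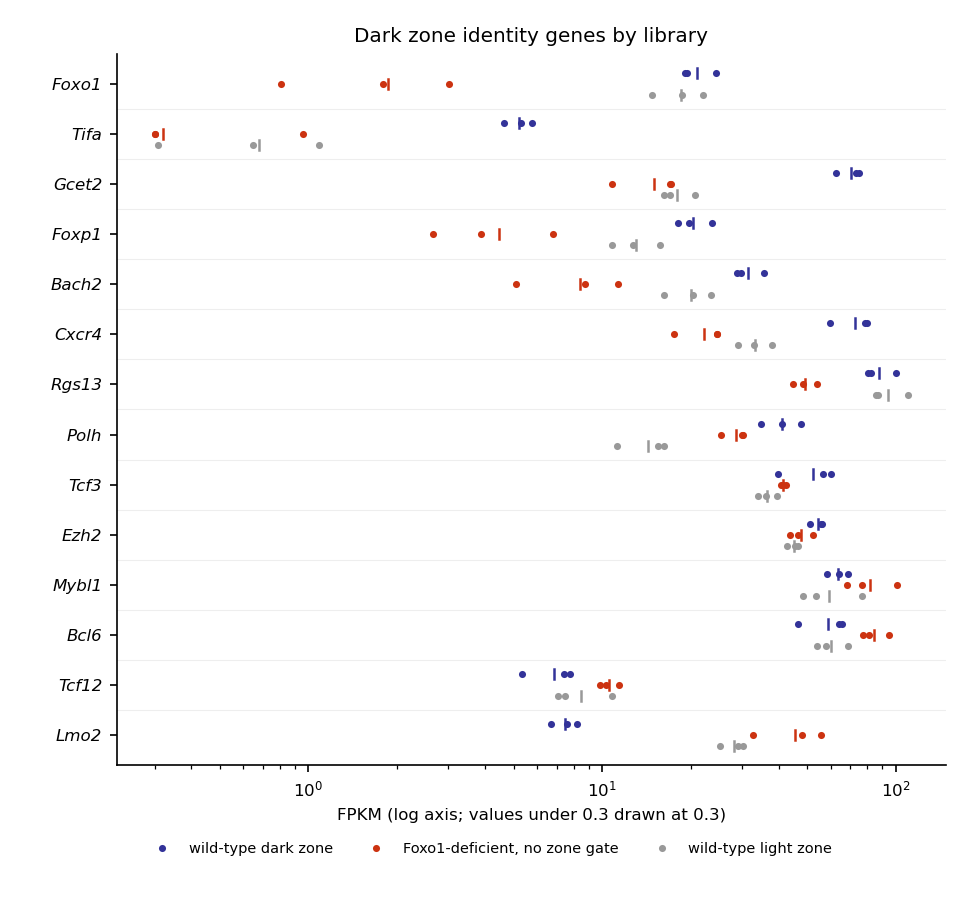
FPKM of 14 of the 15 dark zone identity genes in each library on a log axis (points; short vertical bars are group means, n = 3), with wild-type dark zone in blue, Foxo1-deficient cells in red, wild-type light zone in grey and values under 0.3 drawn at 0.3. The red points of Foxp1 and Bach2 lie below both wild-type groups, those of Tcf3 and Ezh2 overlap the dark zone, and those of Lmo2 lie above both.

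Gcet2 (also Gcsam, chr16:45610553-45622980), a germinal center adaptor that tunes receptor signalling and motility, stood at 74.8, 73.3 and 62.3 FPKM in the dark zone. In the Foxo1-deficient libraries it stood at 10.8, 17.0 and 17.1 FPKM. The groups were wide apart, and the fall of 2.18 passed the test (limma, difference -2.18, adjusted p = 0.000378). Its light zone level was 17.98 ± 2.38 FPKM (SD, n = 3), and the difference from that level was -0.27 (limma, adjusted p = 0.617).

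Bach2 and Foxp1 behaved differently from Gcet2 in that they also lay below the light zone. Bach2, a repressor that holds back plasma cell differentiation, read 35.7, 28.7 and 29.6 FPKM in the dark zone and 8.77, 5.09 and 11.3 FPKM in the Foxo1-deficient libraries. No Foxo1-deficient library reached the dark zone range, and the difference was -1.84 (limma, adjusted p = 0.0038). Against the light zone libraries, at 16.2, 23.5 and 20.4 FPKM, the difference was -1.21 (limma, adjusted p = 0.0477).

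Foxp1 (chr6:98875336-99385339), a forkhead repressor of B cells, read 23.6, 18.1 and 19.7 FPKM in the dark zone and 6.81, 2.65 and 3.88 FPKM in the Foxo1-deficient libraries. Again the groups were separate, with a difference of -2.04 (limma, adjusted p = 0.00355). The light zone libraries stood at 15.7, 12.7 and 10.8 FPKM, above every Foxo1-deficient library, and that difference was -1.43 (limma, adjusted p = 0.0357). For Bach2 and Foxp1 the Foxo1-deficient level thus lay below both wild-type gates.

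Tifa, an adaptor of TRAF6, read 5.31, 4.62 and 5.76 FPKM in the dark zone, 0.957 FPKM in Foxo1-deficient library 1 and was listed at 0 in libraries 2 and 3. It was low in every Foxo1-deficient library and also in the light zone, at 0.307, 1.09 and 0.647 FPKM. Tifa passed the filter only through the dark zone libraries, so it had to be lower and its call supports nothing. That call (limma, adjusted p = 0.00568) was lost with no filter on low values and in the voom fit on implied fragments, with an adjusted p of up to 0.116.

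Rgs13, which limits signalling from CXCR4 and CXCR5, read 80.2, 82.3 and 100 FPKM in the dark zone and 44.6, 48.1 and 54.0 FPKM in the Foxo1-deficient libraries. Its light zone level, 87.2, 109.8 and 85.8 FPKM, was as high as in the dark zone, and the Foxo1-deficient cells lay below both. The differences were -0.82 from the dark zone and -0.93 from the light zone (limma, adjusted p = 0.0169 and 0.0168). The first call was lost with no filter and when dark zone library 2 or 3 or Foxo1-deficient library 1 or 2 was left out (adjusted p up to 0.0685).

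Lmo2, a LIM-domain bridge in transcription complexes and a marker of germinal center B cells, went the other way. It read 7.60, 8.21 and 6.70 FPKM in the dark zone and 47.9, 55.4 and 32.6 FPKM in the Foxo1-deficient libraries. This rise of 2.41 was among the clearest on the list (limma, adjusted p = 0.00022). The light zone libraries, at 30.2, 29.1 and 25.1 FPKM, were also high.

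Other regulators of the germinal center program stayed close to the dark zone. Bcl6, the repressor that defines germinal center B cells, read 63.8, 65.4 and 46.5 FPKM against 94.5, 81.2 and 77.0 FPKM, a difference of 0.53 with a 95% interval of 0.15 to 0.91 (limma, adjusted p = 0.146). It passed only with quantile normalization (adjusted p = 0.0495). Ezh2, a histone methyltransferase of dividing germinal center cells, differed by -0.20 (interval -0.51 to 0.11). Tcf3, the E2A protein, differed by -0.30 (interval -0.69 to 0.09), and Mybl1, a Myb factor typical of germinal center B cells, by 0.34 (interval -0.10 to 0.78). The E protein gene Tcf12 was neither called nor bounded, at 0.57 (interval 0.03 to 1.10).

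Promoter sequences were read for the genes that fell, to see whether the letters of the forkhead core, GTAAACA or TGTTTAC on the other strand, lie near their start sites. RefSeq windows of 250 bases before to 50 after each start (GRCm38.p6) matched 64 of the 81 lower genes, and 3 of these, Pim1, Gm17745 and Sepp1 (Selenop), held the letters (4.69%). The same letters were found in 5 of 172 matched higher genes (2.91%), in 113 of 3765 bounded genes (3.0%) and in 237 of all 7682 matched tested genes (3.09%). Counted by window, 1199 of all 32851 in the table held them (3.65%). With 3 genes the share among the lower genes is imprecise, and nothing is read from it. The 250 bases before the start are shown for 2 of the genes that fell, Cxcr4 and Gcet2, which hold no match, and for Pim1, which does, with the match in capitals. The Cxcr4 stretch is chr1:128592300-128592549 on the minus strand, that of Gcet2 chr16:45610190-45610439 and that of Pim1 chr17:29492835-29493084, both on the plus strand. Each is written 5′ to 3′ in the direction of the gene.
Cxcr4: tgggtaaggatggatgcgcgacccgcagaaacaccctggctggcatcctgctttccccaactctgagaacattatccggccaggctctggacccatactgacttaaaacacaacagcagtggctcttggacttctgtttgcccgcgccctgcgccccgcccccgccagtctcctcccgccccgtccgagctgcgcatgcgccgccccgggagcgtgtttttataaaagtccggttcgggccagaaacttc
Gcet2: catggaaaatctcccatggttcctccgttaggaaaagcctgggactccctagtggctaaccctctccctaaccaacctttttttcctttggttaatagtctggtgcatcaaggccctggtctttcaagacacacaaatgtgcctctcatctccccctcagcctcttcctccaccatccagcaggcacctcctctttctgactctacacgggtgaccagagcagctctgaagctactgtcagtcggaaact
Pim1: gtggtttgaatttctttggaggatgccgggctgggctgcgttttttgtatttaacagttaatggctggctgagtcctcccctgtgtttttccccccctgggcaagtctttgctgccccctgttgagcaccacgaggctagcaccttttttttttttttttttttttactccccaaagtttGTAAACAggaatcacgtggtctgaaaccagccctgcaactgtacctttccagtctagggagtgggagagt
In Pim1 the first letter of the match lies at -70 from the start. Pim1 has another start in the table whose window holds no match, and the windows of Bach2, Foxp1, Rgs13, Lmo4 and Cdc25b hold none. A match describes letters only, and the absence of a match concerns this window alone.

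Genes that place cells within the follicle were called in both directions, but 1 of the 2 lower ones, Cxcr4, was gated. Of 31 positioning genes, 23 were tested, 2 were higher, 2 lower and 10 bounded (43.5%, against 48.5% of all genes), with a median of 0.26. Over all genes 2.35% were higher and 0.85% lower. Without Cxcr4, 2 of 22 were higher and 1 was lower, with a median of 0.32. In limma 10 had an unadjusted p below 0.05, of which 8 were higher, against 16.7% of all genes. The lower members were Rgs13 and the gated Cxcr4, and the higher ones S1pr3 and Rgs10. S1pr2, which couples to Gna13 and holds cells in the germinal center, stood at 69.8, 67.5 and 53.6 FPKM against 88.4, 60.4 and 82.6 FPKM. The 2 groups overlapped and the difference was 0.26 (95% interval -0.14 to 0.67). Its signalling partner Arhgef1 differed by 0.38 (interval 0.02 to 0.75), and the G protein Gnai2, which carries chemokine signals, by 0.01 (interval -0.37 to 0.38).

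S1pr3, another sphingosine receptor, rose from 4.03, 5.19 and 4.32 FPKM to 14.4, 10.4 and 13.9 FPKM, a difference of 1.32 (limma, adjusted p = 0.0103). It was as high in the light zone, at 18.2, 13.2 and 17.5 FPKM. Rgs10, a brake on Gi signalling that myeloid cells also express, read 22.4, 23.3 and 11.8 FPKM against 42.3, 52.4 and 80.5 FPKM, and 14.2 ± 4.58 FPKM in the light zone (SD, n = 3). Its rise of 1.56 (limma, adjusted p = 0.0244) was lost with no filter and without dark zone library 1 or 3 or Foxo1-deficient library 2 or 3 (adjusted p up to 0.192). Foxo1-deficient library 3 had the highest Rgs10 value and also the highest Lyz2 value, a macrophage lysozyme, at 127 FPKM, and the part of myeloid RNA in this result was not tested. Ccr7 and Ccr6, homing receptors of naive and memory B cells, were too low to be tested.

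Few hypermutation genes were called. Of 30 members, 1 was higher, 0 were lower and 19 were bounded (63.3%), with a median of -0.15. Of the 17 members with a mean of at least 10 FPKM 14 were bounded, against 71.7% of the 3911 tested genes at that level. These shares are near the background, where 0.85% of all genes were lower. The count of 0 lower members held in each of the 18 alternatives tried, voom among them, and at an unadjusted p below 0.05 in limma 2 were lower and 3 higher.

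Polh, the polymerase that copies past lesions and makes mutations at A and T pairs, read 40.8, 47.6 and 34.7 FPKM in the dark zone and 25.4, 30.1 and 30.0 FPKM in the Foxo1-deficient libraries. The Foxo1-deficient libraries were lower without overlap, but the difference of -0.51 was not called and was bounded (interval -0.94 to -0.07, limma, adjusted p = 0.221). The light zone libraries were lower still, at 15.5, 16.2 and 11.2 FPKM, and there the Foxo1-deficient cells were higher by 0.96 (limma, adjusted p = 0.0369). Polh thus held an intermediate level. Rev1, a scaffold of translesion polymerases, rose from 14.9, 10.7 and 10.8 FPKM to 26.7, 30.7 and 23.1 FPKM, a difference of 1.09 (limma, adjusted p = 0.0162). The Rev1 call was lost with no filter and without dark zone library 2 or 3 or Foxo1-deficient library 1 or 2 (adjusted p up to 0.0782).

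Handling of uracil and mismatches held no called gene among 12, in limma or in voom, and 7 were bounded. Msh6, a subunit of a mismatch sensor, differed by -0.08 (interval -0.41 to 0.26). Ung, the glycosylase that removes uracil, was low, at 9.21 ± 4.03 and 7.74 ± 2.99 FPKM (SD, n = 3), and differed by -0.21 (interval -0.92 to 0.50). These 2 genes were named after their values were seen. Pcna, the sliding clamp, was 281 ± 18.5 against 209 ± 56.6 FPKM and was bounded at -0.46 (interval -0.86 to -0.06), with Foxo1-deficient library 3 lowest at 149.8 FPKM.

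For break response and end joining, none of 34 genes was called in either direction and 25 were bounded (73.5%), with a median of 0.10. At an unadjusted p below 0.05 in limma 4 were higher and 0 lower, and voom called 0. H2afx, the histone marked at breaks, differed by -0.11 (interval -0.49 to 0.27), and Parp1, a break sensor, by 0.33 (interval 0.04 to 0.61). Xrcc1, a scaffold of single-strand repair, differed by -0.17 (interval -0.55 to 0.21). Of the 10 end joining genes only 4 were bounded, so most of that group was not resolved to within 2-fold.

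Division genes, whose peak marks the dark zone, held few calls. Among 85 mitosis genes 0 were higher, 3 were lower and 64 were bounded (75.3%), with a median of -0.17 against 0.12 over all tested genes. Over all genes 2.35% were higher, 0.85% lower and 48.5% bounded, so the few calls were all on the lower side. At an unadjusted p below 0.05 in limma 1 was higher and 16 were lower, against 16.7% of all genes in either direction. In voom 0 were called higher and 3 lower. At a mean of at least 10 FPKM, 54 of 72 were bounded (75.0%), near the 71.7% of all genes at that level. The median and the count depended on scaling, since median centring gave 9 lower members and a median of -0.34, and quantile normalization gave 4 and -0.25. Beside this, the same list had a median of 0.45 in dark zone minus light zone, with 11 members higher (all genes 0.587%), and of 0.24 in Foxo1-deficient minus light zone, with none called. These comparisons share libraries and are set side by side only.

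**Figure D2:**
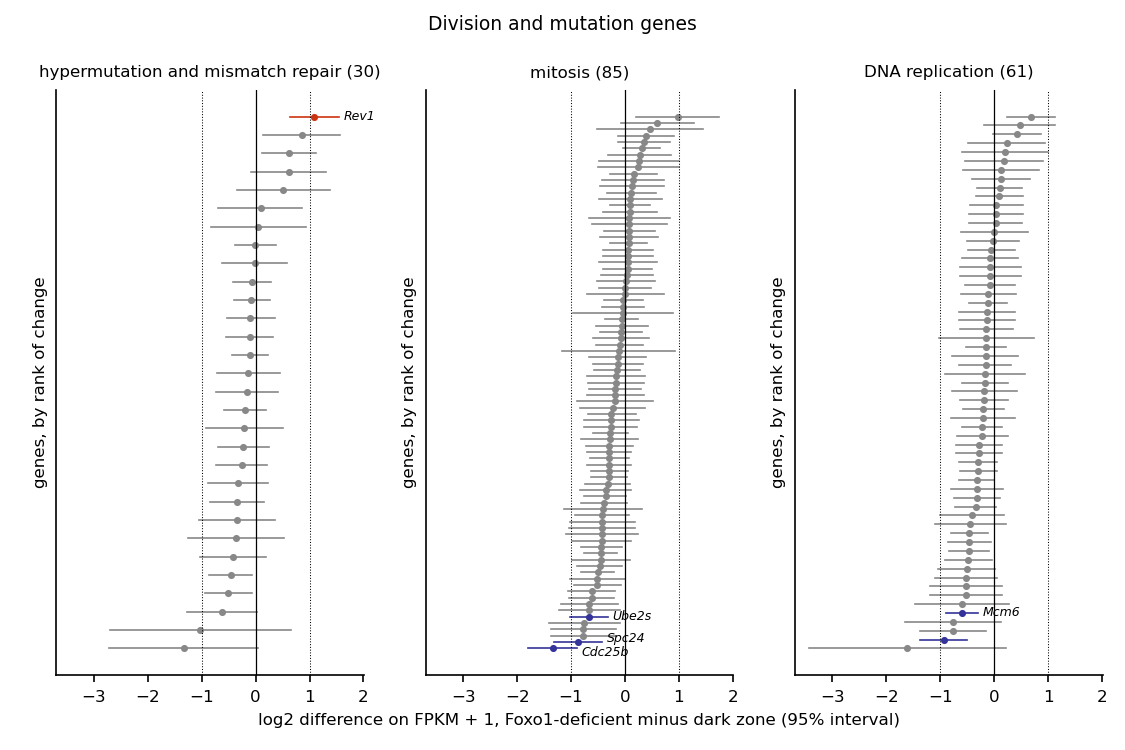
Differences between Foxo1-deficient and dark zone cells on the log2(FPKM + 1) scale (points, with 95% limma intervals as bars) for the tested hypermutation, mitosis and DNA replication genes, ranked within each panel. Dotted lines mark 2-fold, coloured genes passed the test (1, 3 and 2 genes), and most grey intervals lie inside the dotted lines, 19 of 30, 64 of 85 and 46 of 61.

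Cdc25b, a phosphatase that starts mitosis by activating Cdk1, was the clear exception. It read 75.1, 64.0 and 57.8 FPKM in the dark zone and 33.0, 21.6 and 22.4 FPKM in the Foxo1-deficient libraries. Every Foxo1-deficient library was lower, with a difference of -1.34 (limma, adjusted p = 0.00568), and the call held in all 18 alternatives. The level matched that of the light zone, 24.3, 32.3 and 24.0 FPKM, within the spread of the replicates (difference -0.08, limma, adjusted p = 0.909).

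The other 2 lower mitosis genes were weak calls. Ube2s, a ubiquitin enzyme of the anaphase complex, differed by -0.67 (limma, adjusted p = 0.0456), and Spc24, of the outer kinetochore, by -0.87 (limma, adjusted p = 0.0457). They were lost in 13 of 17 and 12 of 18 alternatives, leaving out any single dark zone library among them. With Foxo1-deficient library 3 left out, 1 mitosis gene was lower.

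Chromatin and condensin genes were the steadiest of the mitosis genes, with all 13 bounded. Mki67, the standard proliferation marker, read 115, 122 and 118 FPKM in the dark zone and 123, 122 and 129 FPKM in the Foxo1-deficient libraries. Top2a, the topoisomerase that separates sister chromatids, read 121, 131 and 113 FPKM against 117, 116 and 117 FPKM. For both the groups overlapped, and the differences were 0.07 (interval -0.27 to 0.41) and -0.06 (interval -0.37 to 0.25). Hmgb2, a chromatin protein of dividing cells, was bounded but lower without overlap, at 277 ± 35.5 against 194 ± 7.23 FPKM (SD, n = 3), a difference of -0.50 (limma, adjusted p = 0.0842). Its light zone level was 146 ± 15.2 FPKM.

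Among cyclins and mitotic kinases only 10 of 18 were bounded, with a median of -0.34, the lowest of the mitosis groups. Ccnb2, a mitotic cyclin, was 58.6 ± 6.12 against 35.2 ± 11.2 FPKM, and Aurka, a centrosome kinase, 18.6 ± 2.49 against 10.8 ± 4.36 FPKM (SD, n = 3). Their differences of -0.77 and -0.78 did not pass (limma, adjusted p = 0.179 and 0.164). Ccnb1 and Cdk1, by contrast, were bounded at -0.18 and 0.00, with intervals of -0.66 to 0.30 and -0.49 to 0.48. These 4 were picked after their values were seen.

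DNA replication genes gave a similar picture, with 0 of 61 higher, 2 lower and 46 bounded (75.4%) and a median of -0.17. Over all genes 2.35% were higher, 0.85% lower and 48.5% bounded, so here too the calls were all on the lower side. At a mean of at least 10 FPKM 41 of 54 were bounded, against 71.7% of all genes at that level. At an unadjusted p below 0.05 in limma 7 were lower and 1 was higher, against 16.7% of all genes, and voom called 3 lower. Mcm6, a helicase subunit loaded at origins, read 122, 124 and 108 FPKM against 84.9, 75.1 and 72.6 FPKM. It was lower without overlap, with a difference of -0.60 (limma, adjusted p = 0.0366). The call was lost when any single dark zone or Foxo1-deficient library was left out, with an adjusted p of up to 0.14. Over all alternatives the lower members numbered 0 to 5, with 5 under median centring. Mcm7 and Rrm2, the ribonucleotide reductase subunit that limits nucleotide supply, were bounded at -0.46 and -0.15.

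Cell cycle control held no called gene among 29 tested, in limma or in voom, and 21 were bounded (72.4%). The unadjusted p was below 0.05 in 3. Ccnd3, the D cyclin on which dark zone division is known to depend, was 94.97 ± 15.6 against 81.6 ± 5.86 FPKM (SD, n = 3), a difference of -0.21 (interval -0.56 to 0.15). Cdk4, its kinase, differed by -0.17 (interval -0.47 to 0.12) and Tfdp1, the E2F partner, by -0.23 (interval -0.67 to 0.20). Of the 15 E2F, Rb and MuvB factors 14 were bounded.

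Among known Foxo targets of lymphocytes, 25 of 35 genes were tested, 0 were higher, 3 were lower against 0.85% of all genes, and 9 were bounded (36.0%, against 48.5% of all genes), with a median of -0.07. The 3 were the gated Cxcr4, and Bach2 and Foxp1. At an unadjusted p below 0.05 in limma 3 were higher and 5 lower, 8 of 25 against 16.7% of all genes, and voom called 4 lower. Blnk, an adaptor of the antigen receptor, was kept at 91.9 ± 8.42 against 106 ± 7.03 FPKM (SD, n = 3), a difference of 0.20 (interval -0.10 to 0.51). Klf2, a regulator of lymphocyte homing that Foxo1 is known to induce, was listed at 0.245, 0.680 and 1.61 FPKM against 3.93, 5.50 and 2.57 FPKM. It was higher without overlap and did not pass (difference 1.46, limma, adjusted p = 0.0597). Klf2 was picked after its values were seen. Of the 15 tested genes of growth restraint and metabolism 9 were not resolved to within 2-fold, and none passed.

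Among the transcription factors of B cells, 36 of 43 were tested, 5 were higher, 2 lower and 20 bounded, with a median of 0.25. Over all genes 2.35% were higher, 0.85% lower and 48.5% bounded. The unadjusted p in limma was below 0.05 for 12 higher and 3 lower members, against 16.7% of all genes. Id2 and Id3, which bind E proteins and keep them off DNA, both rose. Id2 read 4.07, 5.72 and 2.16 FPKM in the dark zone and 19.3, 14.9 and 21.9 FPKM in the Foxo1-deficient libraries. Every Foxo1-deficient library was above the dark zone and above the light zone, at 7.78, 6.85 and 5.27 FPKM. The Id2 differences were 2.03 from the dark zone (limma, adjusted p = 0.00494) and 1.37 from the light zone (limma, adjusted p = 0.0522).

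Id3 read 33.0, 35.1 and 31.2 FPKM against 60.8, 70.1 and 50.5 FPKM, and 38.2, 34.0 and 34.4 FPKM in the light zone. It too lay above both gates, by 0.84 and 0.74 (limma, adjusted p = 0.0173 and 0.0488). The first call was lost without any single dark zone library or without Foxo1-deficient library 1 or 2 (adjusted p up to 0.0834). Myeloid and dendritic cells express Id2, and the part of their RNA in its rise was not tested.

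Ebf1, a factor that specifies B cells, rose from 21.8, 15.6 and 19.9 FPKM to 38.6, 37.8 and 34.2 FPKM, a difference of 0.93 (limma, adjusted p = 0.0148). The Ebf1 call was lost without dark zone library 2 or Foxo1-deficient library 1 or 2 (adjusted p up to 0.066). Pou2f2, the Oct-2 factor, was higher by 0.92 with an adjusted p of 0.0495 in limma and was lost in 15 of 18 alternatives. Its coactivator Pou2af1 moved the other way, from 422.6, 407.4 and 383.0 FPKM to 260.2, 256.9 and 286.2 FPKM. The groups were well apart, and the difference was -0.59 (limma, adjusted p = 0.0293), lost without any single dark zone or Foxo1-deficient library. Spib, Pax5 and Irf8, further factors of B cell identity, were bounded at 0.12, -0.01 and 0.23.

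Genes of the light zone and of CD40 signalling moved unevenly. Of 43 genes 36 were tested, 4 were higher, 1 was lower and 14 were bounded, with a median of 0.50. Over all genes 2.35% were higher, 0.85% lower and 48.5% bounded. Without Cd86, which was gated, 3 of 35 were higher and the median was 0.48. With Cd86 included, the unadjusted p in limma was below 0.05 for 14 higher members and 1 lower, against 16.7% of all genes. The same list had a median of -1.09 in dark zone minus light zone, with 18 lower, Cd86 among them (all genes 1.4%), and of -0.53 in Foxo1-deficient minus light zone, with 6 lower (all genes 0.839%). Cd40, the receptor for T cell help, read 8.59, 8.16 and 9.55 FPKM in the dark zone and 30.9, 21.9 and 24.0 FPKM in the Foxo1-deficient libraries. It rose by 1.44 (limma, adjusted p = 0.00236) toward its light zone level of 39.5, 36.5 and 44.9 FPKM.

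Icosl, the ligand for ICOS on T cells, read 14.8, 16.8 and 8.92 FPKM against 36.2, 34.2 and 32.1 FPKM and rose by 1.32 (limma, adjusted p = 0.00982). Nfkbiz, an atypical IkB protein, rose from 0.917, 1.10 and 0.831 FPKM to 4.74, 6.00 and 6.76 FPKM, by 1.80 (limma, adjusted p = 0.00647). Both sets of libraries were separate. Of the dark zone values of Nfkbiz only 1.10 FPKM reached 1 FPKM, so it passed the filter only through the Foxo1-deficient libraries. Its call among the higher members therefore supports nothing. Icosl was lost as a call with no filter (adjusted p = 0.066).

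Cd83, a light zone surface marker, did not follow. It read 50.6, 46.5 and 50.8 FPKM in the dark zone and 62.5, 49.0 and 56.8 FPKM in the Foxo1-deficient libraries, against 211, 163 and 182 FPKM in the light zone. The Foxo1-deficient libraries overlapped the dark zone and lay far below the light zone, with differences of 0.18 (interval -0.15 to 0.51) and -1.71 (limma, adjusted p = 0.000241). Il21r, the receptor for the helper cytokine IL-21, was likewise bounded at 0.20 and lay 0.59 below the light zone without passing (limma, adjusted p = 0.125). Dusp2, a phosphatase induced by activation, differed from Cd83. It was bounded at 0.57 (interval 0.17 to 0.97) but higher without overlap, at 34.6 ± 7.89 against 51.1 ± 5.33 FPKM (SD, n = 3). Its light zone level was 47.1 ± 2.26 FPKM, a difference of 0.11 (limma, adjusted p = 0.842). Birc3, an NF-kB target that protects from death, was bounded at 0.21 and stood at 24.1 ± 1.34 FPKM, below the light zone at 45.3 ± 2.9 FPKM (SD, n = 3, limma, adjusted p = 0.0369). Ccnd2, a D cyclin of cells recruited to divide again, was too low to be tested against the dark zone. It was listed at 0.615, 0.0844 and 0.389 FPKM there, at 0.641, 2.76 and 1.94 FPKM in the Foxo1-deficient libraries and at 13.9, 15.2 and 13.8 FPKM in the light zone, and was picked after its values were seen.

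Pim1, a survival kinase induced by cytokines, was the 1 lower member. It read 57.3, 55.1 and 53.6 FPKM in the dark zone, 26.9, 19.6 and 16.0 FPKM in the Foxo1-deficient libraries and 37.8, 42.8 and 53.9 FPKM in the light zone. All Foxo1-deficient libraries lay below both gates. The differences were -1.40 from the dark zone and -1.09 from the light zone (limma, adjusted p = 0.00433 and 0.0258), and the first held in all 18 alternatives.

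B cell receptor signalling divided between the receptor and its regulators. Of 33 tested genes 7 were higher, 1 was lower and 21 were bounded, with a median of 0.32. Over all genes 2.35% were higher, 0.85% lower and 48.5% bounded. The unadjusted p in limma was below 0.05 for 14 higher and 2 lower members, against 16.7% of all genes. The higher genes lay mainly among coreceptors and brakes, 6 of 13, against 1 of 20 among the receptor and its kinases. The receptor subunits Cd79a and Cd79b were kept, at 358 ± 35.4 against 399 ± 54.0 and 492 ± 50.5 against 485 ± 77.9 FPKM (SD, n = 3), with differences of 0.15 and -0.02.

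Cr2, the complement receptor CD21 that lowers the threshold of the antigen receptor, read 19.3, 16.3 and 16.3 FPKM in the dark zone and 76.3, 69.6 and 83.8 FPKM in the Foxo1-deficient libraries. It rose by 2.08 (limma, adjusted p = 0.000096), and the light zone, at 47.4, 55.7 and 42.6 FPKM, lay between. Cd22, an inhibitory lectin of B cells, rose from 79.6, 83.8 and 69.2 FPKM to 199, 178 and 166 FPKM, by 1.21 (limma, adjusted p = 0.00127). Both calls held in all 18 alternatives, and the part of other cells in these rises was not tested.

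Siglecg, another inhibitory lectin, read 46.5, 34.5 and 29.2 FPKM against 117, 76.3 and 121 FPKM and rose by 1.48 (limma, adjusted p = 0.00748), a call lost with no filter (adjusted p = 0.0871). Pag1, an adaptor that recruits the kinase Csk, rose from 8.98, 8.80 and 6.92 FPKM to 22.5, 22.6 and 19.9 FPKM, by 1.30 (limma, adjusted p = 0.00938). Neither gene overlapped between the groups. Syk, the kinase that passes the receptor signal on, was the 1 lower member, at 122.1, 112.3 and 98.3 FPKM against 70.9, 55.0 and 66.5 FPKM. Its fall of 0.78 (limma, difference -0.78, adjusted p = 0.0219) was lost with no filter and without dark zone library 1 or 2 or Foxo1-deficient library 2 or 3 (adjusted p up to 0.0975). Ptpn6, the phosphatase SHP-1 that inhibitory receptors recruit, was bounded at 0.48 (interval 0.15 to 0.81).

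**Figure D3:**
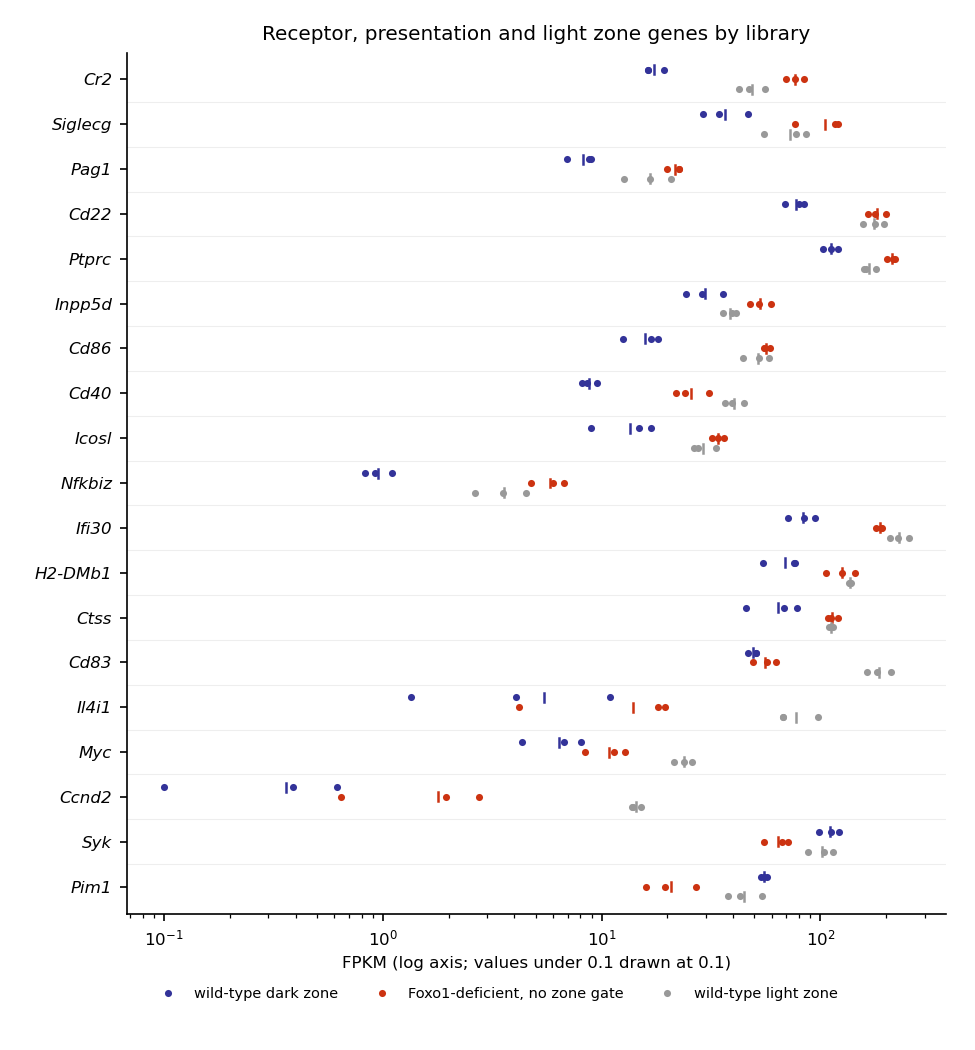
FPKM of receptor, presentation and light zone genes in each library on a log axis (points; short vertical bars are group means, n = 3; values under 0.1 drawn at 0.1; blue wild-type dark zone, red Foxo1-deficient, grey wild-type light zone), chosen after their values were seen. Cr2 and Cd40 of the Foxo1-deficient cells lie above the dark zone, Cd83 and Ccnd2 lie far below the light zone, and Pim1 lies below both.

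Antigen presentation on MHC class II was higher in part. Of 16 genes 6 were higher and 9 were bounded, with a median of 0.51, against 2.35% higher and 48.5% bounded of all genes. The unadjusted p in limma was below 0.05 for 11 members, all higher, against 16.7% of all genes. Ifi30, a lysosomal thiol reductase that unfolds antigen, rose from 83.9, 94.4 and 71.1 FPKM to 179.3, 191.4 and 190.4 FPKM, by 1.17 (limma, adjusted p = 0.00143), and held in all 17 alternatives in which it was tested. The count was not stable, with 3 higher under median centring, 8 under quantile normalization and 1 to 3 with a library left out. H2-DMb1, a chain of the peptide loader, rose by 0.85 (limma, adjusted p = 0.0184), lost without dark zone library 3 or Foxo1-deficient library 1 or 3 (adjusted p up to 0.092 over its alternatives). The proteases Ctss and Ctsb, which myeloid cells also express, rose by 0.84 and 1.06 (limma, adjusted p = 0.0302 and 0.0435), calls lost in 9 and 14 of 18 alternatives.

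Cd74, H2-Aa and H2-Ab1 were bounded, but Cd74 and H2-Aa were higher without overlap, with intervals above 0. In the whole list 15 of 16 differences were positive, against 5822 of 9533 over all tested genes. Cd74, the invariant chain, differed by 0.49 (interval 0.17 to 0.81), H2-Aa by 0.50 (interval 0.22 to 0.78) and H2-Ab1 by 0.26 (interval -0.06 to 0.57). Macrophages and dendritic cells carry class II, and the summed level of 23 of their markers was 159 to 288 FPKM in the Foxo1-deficient libraries against 15.5 to 28.4 FPKM in the dark zone. Their part in these gains was not tested.

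Few survival and growth genes were called. Of 24 tested survival genes, Bid, a trigger of mitochondrial death, rose from 29.6, 28.1 and 29.5 FPKM to 60.2, 48.9 and 49.6 FPKM, by 0.84 (limma, adjusted p = 0.0143), a call lost without dark zone library 1 or 2 or Foxo1-deficient library 1 (adjusted p up to 0.0638). Pim1 was the 1 lower member, and 15 were bounded, a count that was 6 to 14 with a library left out. Over all genes 2.35% were higher, 0.85% lower and 48.5% bounded. The unadjusted p in limma was below 0.05 for 5 higher survival genes and 1 lower, against 16.7% of all genes. Mcl1, the main protector of germinal center B cells, was bounded at 0.22 (interval -0.12 to 0.56).

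None of 45 ribosome biogenesis and Myc target genes was called in limma or in voom, 2 had an unadjusted p below 0.05 and 32 were bounded (71.1%), with a median of 0.08. The medians against the light zone were -0.64 both for the Foxo1-deficient and for the dark zone cells. Npm1, a nucleolar chaperone, read 306 ± 33.3 in the dark zone, 314 ± 11.7 in the Foxo1-deficient and 458 ± 56.1 FPKM in the light zone libraries (SD, n = 3). Myc, chosen after its values were seen, was 6.38 ± 1.88, 10.9 ± 2.28 and 23.7 ± 2.26 FPKM in the same order and was not called against the dark zone (0.70, limma, adjusted p = 0.18).

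Metabolic lists held few calls. None of 20 glycolysis and none of 21 amino acid supply genes was called in limma, with 14 and 10 bounded and 6 and 8 at an unadjusted p below 0.05. Median centring gave 3 lower in each, and voom gave 1 lower in each. Of 30 oxidative phosphorylation genes 22 were bounded and 2 were lower, Sdhb and Sdhd of succinate dehydrogenase, by -0.71 and -1.06 (limma, adjusted p = 0.0468 and 0.0481). Both were lost in 13 alternatives, with each dark zone library left out among them, and median centring gave 7 lower in the list. At an unadjusted p below 0.05 in limma 7 oxidative phosphorylation genes were lower and 0 higher, against 16.7% of all genes. Over all genes 2.35% were called higher, 0.85% lower and 48.5% bounded. Among 26 sterol and lipid genes, 13 of them bounded, Scd1, a desaturase, rose by 0.78 (limma, adjusted p = 0.0156), lost without dark zone library 1 or 2 or Foxo1-deficient library 1 or 3 (adjusted p up to 0.0682). No interferon or stress gene was called in limma or in voom, and 5 and 2 had an unadjusted p below 0.05. Only 2 of 15 and 3 of 9 were bounded, so those lists were poorly resolved.

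**Figure D4:**
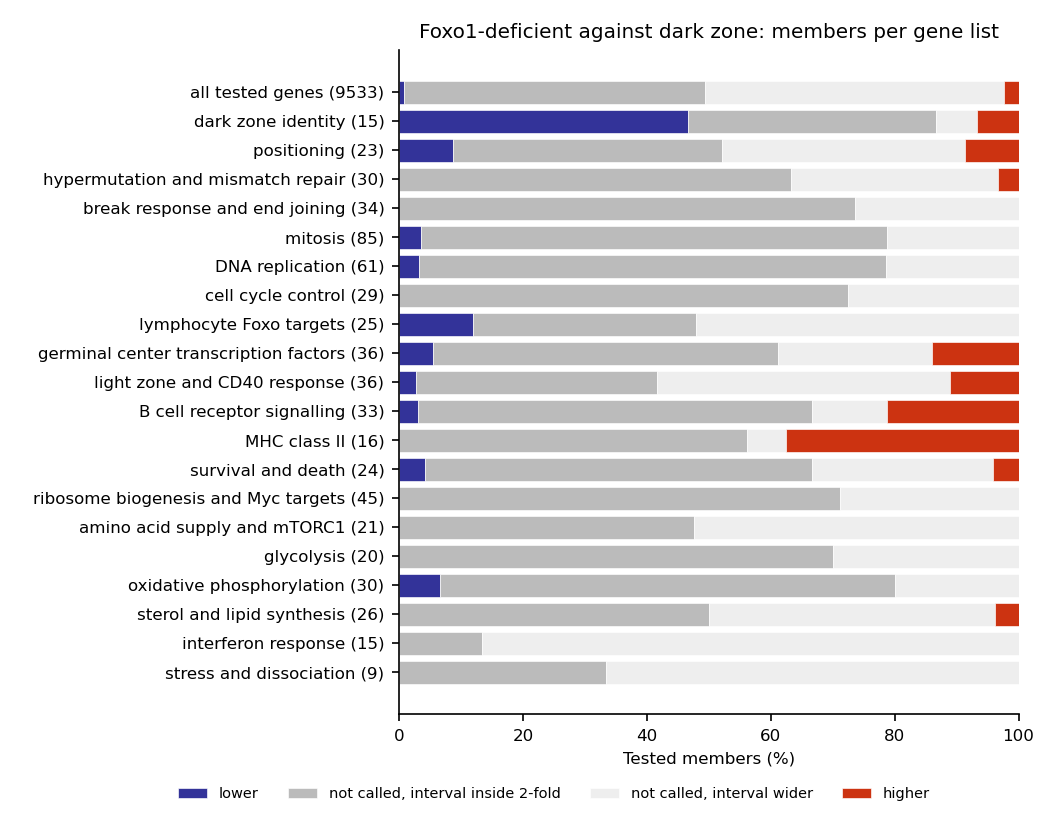
Share of tested members (horizontal axis, percent) that were lower, bounded within 2-fold, neither, or higher in Foxo1-deficient against dark zone cells, for all tested genes and for each gene list (tested members in parentheses). Dark zone identity has the widest blue section, 7 of 15. These include the deleted Foxo1, the gated Cxcr4 and Tifa, whose direction the filter fixed. Break response and cell cycle control are among the lists that hold neither a lower nor a higher gene.

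Outside the lists, the 15 largest falls included Lmo4, a LIM-domain partner of transcription factors. It read 28.3, 39.6 and 34.5 FPKM in the dark zone and 6.10, 3.54 and 10.2 FPKM in the Foxo1-deficient libraries, a difference of -2.29 (limma, adjusted p = 0.00568), lost with no filter (adjusted p = 0.0816). The transcript A130040M12Rik (chr13:62184507-62397849) was the most abundant of them, at 554.7, 466.9 and 430.6 FPKM against 105.7, 45.9 and 71.7 FPKM. Its difference of -2.76 (limma, adjusted p = 0.00022) held in all alternatives, and the light zone, at 277.2, 290.8 and 255.2 FPKM, was also above the Foxo1-deficient cells (-1.95, limma, adjusted p = 0.00299). Krt222 and Gmfg, an actin regulator of blood cells, fell by 2.62 and 2.26 and likewise held in all alternatives (differences -2.62 and -2.26, limma, adjusted p = 0.00171 and 0.00259). Ptgr1 was listed at 0 in all 3 Foxo1-deficient libraries and at 4.29, 5.44 and 2.81 FPKM in the dark zone. The other falls were Foxo1, Gcet2, Foxp1, Tifa, Gm14446, Gdpd3, Gstt1, BC024582, BC017612 and Mcoln2, of which Gdpd3 and BC024582 were lost in 12 and 8 of 18 alternatives. Ptgr1, Tifa, Gm14446 and Gstt1 stayed under 1 FPKM in every Foxo1-deficient library. They passed the filter only through the dark zone libraries, so they had to be lower and their tests support nothing. Krt222, Mcoln2 and BC024582 reached 1 FPKM in too few Foxo1-deficient libraries to pass there. They too were tested only through the dark zone libraries, and their calls support nothing.

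The 15 largest rises were mostly genes of other blood cells. They were Lyz2, Lyz1, Tyrobp, Fcer1g, Cd68, Ccl6 and Alox5ap of myeloid cells, S100a8 and S100a9 of neutrophils, the globins Beta-s and Hbb-b2, and S100a4, Plac8, Ifitm3 and Hes1. Lyz2 was listed at 0, 0 and 0.169 FPKM in the dark zone and at 51.6, 61.2 and 127 FPKM in the Foxo1-deficient libraries. Beta-s stood at 4.84, 9.71 and 4.48 FPKM against 109.6, 87.5 and 321.5 FPKM. Hes1, a Notch target, was listed at 0, 0.628 and 0.116 FPKM in the dark zone, at 9.11, 9.33 and 7.07 FPKM in the Foxo1-deficient libraries and at 0 in the light zone (limma against the dark zone, adjusted p = 0.000591, and 0.063 with voom). Hes1, Lyz2, Lyz1, S100a8, Tyrobp, S100a4, Ccl6, Cd68 and Alox5ap stayed under 1 FPKM in every dark zone library. They passed the filter only through the Foxo1-deficient libraries, so they had to be higher and their tests support nothing. S100a9, Fcer1g, Plac8 and Ifitm3 reached 1 FPKM in too few dark zone libraries to pass there. They too were tested only through the Foxo1-deficient libraries, and their calls support nothing. The Ifitm3 call was lost in 11 of 18 alternatives.

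**Figure D5:**
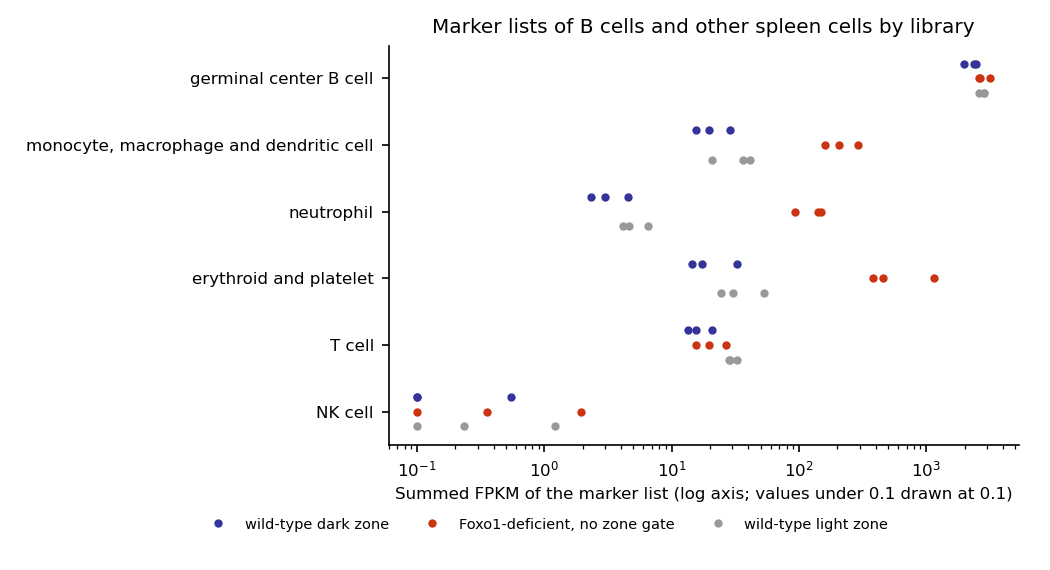
Summed FPKM of marker lists in each library on a log axis (points; blue wild-type dark zone, red Foxo1-deficient, grey wild-type light zone; values under 0.1 drawn at 0.1). Germinal center B cell markers sum to 1990 to 2450 in the dark zone and 2620 to 3160 in the Foxo1-deficient libraries, whereas the myeloid, neutrophil and erythroid sums are separate from both wild-type groups.

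Marker lists put sizes to this. Of 23 monocyte, macrophage and dendritic cell markers 12 were tested and 10 were higher, with Cd14 at 0 in every library. Neutrophil markers summed to 93.4 to 150 FPKM against 2.3 to 4.52 FPKM, with 4 of 5 tested higher, and Elane, Mpo and Prtn3 at 0 throughout. Erythroid and platelet markers summed to 379 to 1140 FPKM against 14.4 to 32.9 FPKM, with 5 of 6 tested higher and the platelet genes Ppbp and Pf4 at 0. Of the tested markers in these lists 8, 3 and 3 were under 1 FPKM in every dark zone library and passed the filter only through the Foxo1-deficient libraries, so they had to differ and these counts support nothing. T cell sums were 15.6 to 26.6 FPKM against 13.5 to 20.7 FPKM, nearly all from Lck, with Cd3e, Cd3g and Cd4 at 0. Naive and memory B cell markers were not called, with sums of 27.5 to 36.8 FPKM against 34.6 to 46.1 FPKM. Of 14 germinal center B cell markers, all tested, 8 were bounded, Cd79a, Cd79b and Pax5 among them. Gcet2 and Rgs13 were lower, and Cd22 and Ms4a1, the gene of CD20, were higher. Ms4a1, named after its values were seen, read 396.3, 392.3 and 378.7 FPKM in the dark zone and 696.1, 618.4 and 629.1 FPKM in the Foxo1-deficient libraries, without overlap, a difference of 0.73 (limma, adjusted p = 0.00777).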

How the data were processed

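RNA from sorted splenic germinal center B cells was taken up in TRIzol and made into libraries with the NEBNext Ultra kit, per the labels' protocols. Mouse build mm9 and the tools TopHat2 2.0.8 and Cufflinks 2.1.1 appear in the submitters' processing notes. Each library has 1 table of genes from the authors, which per the file headers holds FPKM, its lower and upper confidence limit and a status. The sources used here give no totals behind FPKM, and depth was only estimated, from the widths of these limits.

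Tables were joined by symbol and locus. Left out were 716 entries of 250 repeated symbols and 7 genes with a failed estimate, which left 22977 genes. The filter kept 9533. All 9 libraries entered 1 limma 3.58.1 fit (R 4.3.3) with an intensity trend on log2(FPKM + 1) and group means. The light zone libraries there add to the estimate of the spread. Tests are two-sided, with Benjamini-Hochberg adjustment.

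The comparison, the 20 gene lists (646 genes, 580 tested) and the 9 marker lists were chosen with earlier results of these data known. Named by rule were Foxo1, the sort genes, every dark zone identity gene, up to 4 called members with the largest change per direction and up to 3 bounded members with the highest dark zone FPKM per list, and the 15 largest falls and rises among called genes without overlap. Exceptions are stated where they occur. Alternatives were the 6 libraries alone, a pseudocount of 0.1, no filter, a filter over 9 libraries or at 5 FPKM, median centring, quantile normalization, voom on fragments implied by the Cufflinks limits, a replicate block, and leaving out each library. Coordinates of genes are those of the files on mm9, with the first base counted as 1. Promoter letters come from RefSeq on GRCm38.p6 and are never joined to mm9 positions. Values of some list members are not reported here by name, and the counts include them.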

Additional observations from a re-analysis of the deposited data

How the results depend on the processing

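Leaving out single libraries moved the number of called genes to between 121 and 276 from 305, of higher genes to between 74 and 205 from 224, and of lower genes to between 26 and 80 from 81. With no filter on low values, 166 genes were called, 134 higher and 32 lower, of 22977 tested, and 16106 were bounded within 2-fold. Median centring gave 234 lower genes and quantile normalization 149. The share of higher genes among those called was 73.4% as reported, 44.4% with median centring, 61.0% with quantile normalization, 63.9% with voom and 48.1% without Foxo1-deficient library 1. Of the 305 calls, 266 were shared with median centring and 190 with voom. Of 71 named calls 21 held in all 18 alternatives, 29 held with each library left out, and none reversed. A gene that an alternative did not test was counted there as not held, as for Ifi30, Nfkbiz and Tyrobp, which lost no test.

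Same-numbered libraries deviated together with r of -0.048 to 0.086, so the numbers were not taken to pair the samples. A replicate block gave 255 called genes, 186 higher and 69 lower, of which 234 were among the 305.

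The number of lower dark zone identity genes ran from 5 to 7 over all alternatives, of lower mitosis genes from 1 to 9, of lower DNA replication genes from 0 to 5 and of higher MHC class II genes from 1 to 8. With 3 libraries per group and FPKM in place of counts, precision is set by the spread between libraries, and 4605 genes were neither called nor bounded.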
